A study of Mus musculus with 18 samples.

Results

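The genes examined were the histone deacetylases (Hdac), the sirtuins (Sirt), the histone lysine demethylases (Kdm) and the SET-domain genes named Setd or Setdb. They were chosen by symbol, as names starting with Kdm, Setd, Hdac or Sirt and a family number or letter. Of 46 matching genes, 3 sex-linked ones (Kdm5c, Kdm5d and Kdm6a) were left out. This left 43 genes of the 23420 in each library. Hdac6 and Hdac8, which lie on the X chromosome, stayed among the 43. RNA-seq was performed on 18 libraries of splenic B cells, bead-purified by removal of other cells and cultured for 4 hours, with 3 mice per genotype and 3 libraries in each of 6 groups. All mice were MRL/lpr, a lupus-prone strain carrying the Fas lpr mutation, and were 5 to 7 weeks old. In the first arm all mice were female and Tlr7-/-, and were either Tlr9+/- (called Tlr9het here) or Tlr997, in which TLR9 carries the TIR signaling domain of TLR7 in place of its own. These cells were unstimulated or received the TLR9 agonist CpG at 10 µg/ml. In the second arm all mice were male, Tlr9-/- and Tlr779, in which TLR7 carries the TIR domain of TLR9, and cells were unstimulated or received the TLR7 agonist CL097 at 5 µg/ml. Both chimeric receptors are encoded by alleles engineered at the endogenous loci. The control genotype of the second arm was not analysed here. The sample titles call the control of the first arm Tlr9+/-, whereas the treatment text of the same samples calls it Tlr9-/-. The titles were followed. The arms differ in sex, genotype and agonist together, so values from them stand side by side and were not compared.

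Histone acetylation generally opens chromatin, and the classical HDACs and the NAD-dependent sirtuins remove it, mostly as parts of corepressor complexes. Methyl groups on histone lysines are written largely by SET-domain enzymes and erased by the flavin-dependent LSD enzymes and the iron-dependent JmjC enzymes, and the lysine modified decides whether the mark goes with active or silent genes. In B cells, TLR signals start a switch from rest to growth, division and plasma cell differentiation, in which these enzymes change and read the chromatin of the genes involved.

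All levels are log2 CPM (read counts scaled to the size of the library) after the authors' quantile normalization, the scale of the deposited files. The 43 genes all passed the filter on low values (at least 3 libraries over 0) in both arms. For 2 of them, Hdac11 and Kdm4d, the stimulated libraries alone would not have passed it. In Tlr779 cells Kdm4d passed through unstimulated replicates 1 and 2 (0.528 and 0.401) and CL097 replicate 2 (0.155). None of the CpG libraries of these 2 genes, and at most 1 of their CL097 libraries, was over 0. The filter thus chose both genes largely by the group where they were high, and their falls support no count. A gene is said to have risen or fallen where limma's Benjamini-Hochberg adjusted p was under 0.05 and the log2 fold change was over 0.5 in size. The depth of each library is unknown, since the files hold no counts. Pearson's r between libraries of a group, over genes, lay between 0.95 and 0.99. Tlr7 averaged 3.15 ± 0.42 (SD, n = 3) in unstimulated Tlr9het cells, 4.96 ± 0.20 in Tlr997 cells and 6.88 ± 0.40 in Tlr779 cells, while Tlr9 averaged 7.37 ± 0.10, 7.04 ± 0.02 and 7.24 ± 0.08 in the same groups. Tlr9 RNA at the level of the gene therefore does not set the Tlr9-/- cells apart. The paper describes a Tlr9 TIR sequence inserted in the Tlr779 allele and a Tlr7 TIR sequence inserted in the Tlr997 allele. The part of these inserted sequences in the Tlr7 and Tlr9 levels was not tested. All 7 B cell markers were present, and their summed CPM lay between 5840 and 7670 in the unstimulated libraries, between 1920 and 2010 in Tlr9het and 2850 and 3460 in Tlr997 cells with CpG, and between 2750 and 3440 in Tlr779 cells with CL097. The macrophage list summed to between 106 and 460 CPM and the T cell list to between 3.23 and 29.2 CPM over all libraries, and the hemoglobin gene Hba-a1 averaged -5.05 in both CpG groups, the most frequent value in the files. In bulk RNA, fewer cells of a type and less RNA per cell cannot be told apart.

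More of these genes fell than rose with stimulation. With CpG in Tlr9het cells, 8 of 43 genes rose and 21 fell, against a background of 57.9% of all 11494 genes tested that changed (29.7% higher and 28.2% lower). With CpG in Tlr997 cells 9 rose and 15 fell, against a background of 55.6% (29.6% higher and 26.0% lower). With CL097 in Tlr779 cells 7 rose and 14 fell, against a background of 46.3% of 11082 genes (22.7% higher and 23.6% lower). The shares of the 43 genes that changed were 67.4%, 55.8% and 48.8%, near the background, while the shares that fell were 48.8%, 34.9% and 32.6%. Their median log2 fold changes were -0.37, -0.38 and -0.35, beside medians of 0.04, 0.07 and -0.02 over all genes tested. Without Hdac11 and Kdm4d, 19, 13 and 13 of 41 genes fell, and the medians were -0.35, -0.37 and -0.34. Without regard to fold size, 37, 34 and 32 of the 43 had an adjusted p under 0.05, against 72.7%, 71.1% and 61.6% of all genes. Stimulated and unstimulated libraries did not overlap for 38, 34 and 33 of the 43, against 80.1%, 71.2% and 67.8% of all genes. These shares and medians are descriptions, with no test of the genes as a list.

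**Figure D1:**
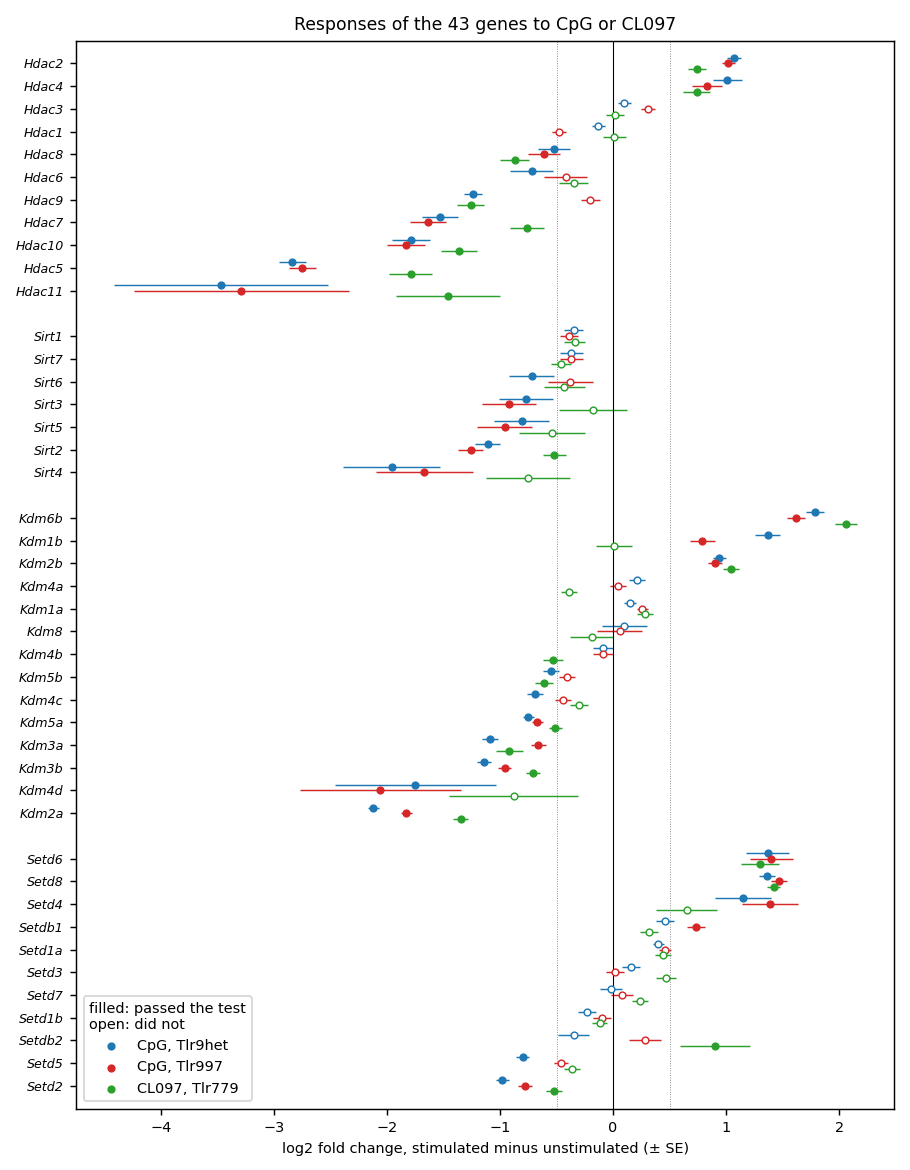
Log2 fold change with stimulation (x axis, stimulated minus unstimulated, with its SE) of each of the 43 genes, in Tlr9het cells with CpG (blue), Tlr997 cells with CpG (red) and Tlr779 cells with CL097 (green). Filled points passed the test, open points did not, and dotted lines mark 0.5 and -0.5. The 7 sirtuin genes all lie below 0 in each response, and Hdac9 is the HDAC gene whose red point stands away from the blue and green.

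Across the 3 responses, 6 genes rose in all (Hdac2, Hdac4, Kdm2b, Kdm6b, Setd6 and Setd8) and 11 fell in all (Hdac5, Hdac7, Hdac8, Hdac10, Hdac11, Kdm2a, Kdm3a, Kdm3b, Kdm5a, Setd2 and Sirt2), Hdac11 through its unstimulated libraries as said above. A further 15 passed the test in 1 or 2 responses. The remaining 11 (Hdac1, Hdac3, Kdm1a, Kdm4a, Kdm8, Setd1a, Setd1b, Setd3, Setd7, Sirt1 and Sirt7) passed it in none. The share of all genes with each of these patterns was not worked out, so the counts are a description only. No gene rose in one response and fell in another, which was rare over all genes tested as well. It held for 0 of 11494 genes between the CpG responses. Between CpG and CL097 it held for 17 (CpG in Tlr9het cells) and 14 (CpG in Tlr997 cells) of 11012 genes. Of the genes that changed with CpG, 23 changed in the same direction in both genotypes, which is 79.3% of those in Tlr9het and 95.8% of those in Tlr997 cells (85% and 88.5% over all genes). Hdac11 and Kdm4d are among the 23.

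The class I HDACs are nuclear enzymes that act in the Sin3, NuRD, CoREST and NCoR complexes. Of the 4, Hdac2 rose and Hdac8 fell in each response, and Hdac1 and Hdac3 passed the test in none. Hdac2 (10:36974297-37001889, build GRCm38) stood at 6.62, 6.71 and 6.63 log2 CPM in unstimulated Tlr9het cells and at 7.69, 7.77 and 7.71 with CpG. In Tlr997 cells it went from 6.57, 6.65 and 6.77 to 7.61, 7.70 and 7.73, and in Tlr779 cells with CL097 from 6.70, 6.72 and 6.62 to 7.38, 7.57 and 7.33. The stimulated libraries lay above all unstimulated ones. The log2 fold changes were 1.07 (SE 0.06, limma adjusted p = 1.9e-09), 1.02 (SE 0.06, 4.2e-09) and 0.74 (SE 0.08, 1.1e-04). Hdac1, the close paralog of Hdac2 in the same complexes, gave -0.13 (limma adjusted p = 0.052), -0.48 (4.1e-06) and 0.01 (0.93), each under the fold threshold. Hdac3, the catalytic subunit of NCoR/SMRT, gave 0.10, 0.31 and 0.02. Hdac8 fell (log2 fold changes -0.52, -0.61 and -0.87), and the fall in Tlr9het cells no longer passed without replicate 1 of the unstimulated or replicate 3 of the CpG libraries (lowest size -0.46).

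The class IIa HDACs (Hdac4, Hdac5, Hdac7 and Hdac9) have little deacetylase activity of their own, bind MEF2 factors and move between nucleus and cytoplasm on phosphorylation. Hdac4 went from 4.29, 4.33 and 3.97 log2 CPM to 5.23, 5.08 and 5.30 in Tlr9het cells, from 4.09, 4.23 and 4.50 to 5.20, 5.12 and 5.01 in Tlr997 cells and from 3.90, 3.94 and 4.13 to 4.89, 4.65 and 4.64 with CL097. It rose in the 3 responses, by 1.01, 0.83 and 0.74, whereas Hdac5 and Hdac7 fell in all. Hdac5 (11:102195747-102230172) went from 6.30, 6.04 and 6.35 log2 CPM to 3.51, 3.36 and 3.31 with CpG in Tlr9het cells, and from 6.20, 6.07 and 6.03 to 3.62, 3.23 and 3.20 in Tlr997 cells. In Tlr779 cells it went from 6.34, 6.16 and 6.66 to 4.32, 4.50 and 4.97 with CL097. The groups were far apart in each genotype, and the log2 fold changes were -2.84 (SE 0.12, limma adjusted p = 2.0e-10), -2.75 (SE 0.12, 3.5e-10) and -1.79 (SE 0.19, 8.7e-05). Hdac7, which keeps early B cells from expressing genes of other lineages, fell (log2 fold changes -1.53, -1.64 and -0.76). Slc48a1, a heme transporter gene that overlaps Hdac7 on the other strand, moved by -1.22, -1.33 and -0.72, and since the strand setting of the counting is not given in the sources used here, reads of overlapping genes may not have been told apart.

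Hdac9 (12:34047580-34917095) fell with CpG in Tlr9het cells but not, by the thresholds used, in Tlr997 cells. Its values were 5.11, 5.02 and 5.01 log2 CPM in unstimulated Tlr9het cells and 3.81, 3.88 and 3.74 with CpG. In Tlr997 cells they were 5.12, 5.04 and 5.05 without and 4.89, 4.92 and 4.80 with CpG. In Tlr779 cells they were 5.30, 5.55 and 5.74 without and 4.32, 4.21 and 4.28 with CL097. Stimulated and unstimulated libraries did not overlap in any genotype, but the gap in Tlr997 cells was small. The log2 fold changes were -1.24 (SE 0.08, limma adjusted p = 7.0e-09) in Tlr9het, -0.20 (SE 0.08, adjusted p = 0.033, under the fold threshold) in Tlr997 and -1.26 (SE 0.12, adjusted p = 6.4e-05) in Tlr779 cells. Between the genotypes with CpG, Hdac9 was 1.06 higher in Tlr997 cells (95% interval 0.89 to 1.23, adjusted p = 6.9e-06), against 0.02 without stimulation (adjusted p = 0.94). The difference of the CpG responses was 1.04 (95% interval 0.80 to 1.28, adjusted p = 4.7e-04), the only one among the 43 genes past both thresholds, where 1.54% of all genes were (0.687% with a higher and 0.853% with a lower value in Tlr997). By p, Hdac9 ranked 10 of 11494 genes for this difference. It kept its call for the difference when each library was left out in turn, with values from 1.00 to 1.07.

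The sequence ahead of 2 Hdac9 start sites is shown because it is the gene whose response differed between the genotypes. Both windows are the 250 bases before a RefSeq start (build GRCm38.p6, minus strand, 5′ to 3′), the first at an internal start within the gene (chr12:34528890-34529139) and the second at the far start (chr12:34917096-34917345). Capitals mark a match to the AP-1 motif TGANTCA, 57 bases before the internal start.
Hdac9 internal start: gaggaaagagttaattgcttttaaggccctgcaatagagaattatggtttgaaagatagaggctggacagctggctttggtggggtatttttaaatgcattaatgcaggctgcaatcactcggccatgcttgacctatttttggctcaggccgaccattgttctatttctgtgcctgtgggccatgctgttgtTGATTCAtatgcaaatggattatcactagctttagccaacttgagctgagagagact
Hdac9 far start: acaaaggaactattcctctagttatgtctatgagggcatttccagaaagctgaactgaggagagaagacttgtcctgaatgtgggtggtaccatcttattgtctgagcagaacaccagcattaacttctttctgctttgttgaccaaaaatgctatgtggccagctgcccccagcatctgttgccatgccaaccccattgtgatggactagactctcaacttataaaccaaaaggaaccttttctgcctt
Both strands of 49 windows, for the 34 of 43 genes with an entry, were searched for 4 motifs, and a match may overlap another. AP-1 was in 3 of the 49 windows (6.12%, against 6.75% of 32851 windows of all genes; Hdac9, Kdm3a and Kdm4a), κB in 3 (6.12% against 3.9%; Kdm2b, Sirt2 and Sirt6), the E-box CACGTG in 2 (4.08% against 6.02%; Kdm4c and Sirt1) and the core of the interferon-stimulated response element in 0 (against 2.98%). The far Hdac9 window held none of the 4. A match to these letters is a description of the sequence, and binding was not measured.

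**Figure D2:**
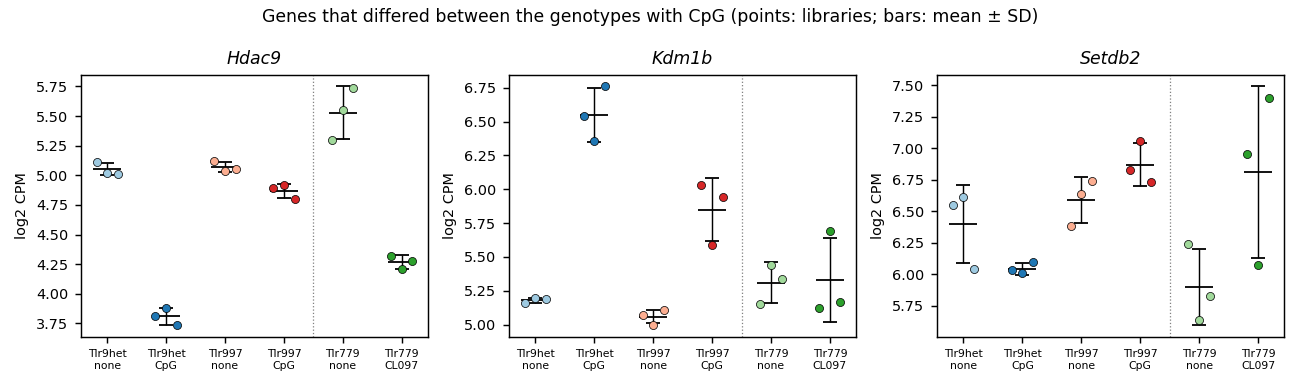
Log2 CPM (y axis) of Hdac9, Kdm1b and Setdb2 in the 6 groups. Points are libraries and bars the mean and SD (n = 3), and the dotted line separates the 2 arms, which were not compared. With CpG, Hdac9 lies between 3.74 and 3.88 in Tlr9het and between 4.80 and 4.92 in Tlr997 cells.

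Of the class IIb and IV enzymes, Hdac10, a polyamine deacetylase, fell in each response. It went from 4.25, 4.30 and 4.46 log2 CPM to 2.46, 2.55 and 2.62 with CpG in Tlr9het cells and from 4.05, 4.07 and 4.61 to 2.22, 2.33 and 2.69 in Tlr997 cells. With CL097 in Tlr779 cells it went from 4.22, 4.13 and 4.25 to 3.10, 2.57 and 2.86. No stimulated library reached an unstimulated one, and the log2 fold changes were -1.79 (SE 0.17, limma adjusted p = 5.3e-07), -1.83 (SE 0.17, 4.9e-07) and -1.36 (SE 0.16, 1.8e-04). Hdac11, a lysine defatty-acylase and the class IV member, fell from 1.86, 0.28 and 1.44 to -1.002, -3.695 and -2.117 in Tlr9het cells and from 1.16, 0.91 and 1.57 to -4.51, -0.51 and -1.21 in Tlr997 cells. Those CpG values lie around the level of few reads (3 counts correspond to about -2.24 log2 CPM, an average worked out from the most frequent value in the files), so the fitted log2 fold changes of -3.47 and -3.29 are imprecise (SE 0.95) and are no bound. In Tlr779 cells Hdac11 went from 1.73, 1.44 and 0.45 to -0.70, 0.44 and -0.50, a log2 fold change of -1.46 (limma adjusted p = 0.025) that was lost in 4 of 6 fits leaving out 1 library. Hdac6, the cytoplasmic tubulin deacetylase, fell by 0.72 in Tlr9het cells, and gave -0.42 and -0.35 elsewhere without passing.

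All 7 sirtuins had negative log2 fold changes in each response. Of them, 5 fell with CpG in Tlr9het cells (71.4%), 4 in Tlr997 cells (57.1%) and 1 with CL097 in Tlr779 cells (14.3%), and none rose. Among all genes tested, 28.2%, 26.0% and 23.6% fell and 29.7%, 29.6% and 22.7% rose, so with CL097 the share that fell lay below that of all genes. Sirt2, a mainly cytoplasmic deacetylase, went from 5.26, 5.17 and 5.35 log2 CPM to 4.18, 4.02 and 4.25 in Tlr9het cells and from 5.27, 5.38 and 5.17 to 4.07, 4.18 and 3.77 in Tlr997 cells, log2 fold changes of -1.11 and -1.26. With CL097 it went from 5.23, 5.24 and 5.39 to 4.68, 4.72 and 4.92, a log2 fold change of -0.52 that no longer passed in 3 of 6 fits leaving out 1 library. The groups did not overlap in any genotype. Nfkbib, an inhibitor of NF-κB that overlaps Sirt2 on the other strand, moved the other way, by 1.72, 1.70 and 1.19. The mitochondrial enzymes Sirt3, Sirt4 and Sirt5 all fell with CpG in both genotypes, and none of them passed with CL097. Sirt4 went from 1.83, 1.77 and 2.17 to 0.07, -0.41 and 0.24 in Tlr9het cells and from 1.72, 1.71 and 2.84 to -0.12, -0.02 and 1.40 in Tlr997 cells. These groups did not overlap, and the log2 fold changes were -1.96 (SE 0.43, limma adjusted p = 0.0011) and -1.67 (SE 0.43, 0.0035), beside -0.75 (adjusted p = 0.11) with CL097. Sirt3 fell (log2 fold changes -0.77 and -0.92) and so did Sirt5 (-0.81 and -0.96) with CpG. Sirt6 fell in Tlr9het cells by 0.72, while Sirt1 and Sirt7 stayed between -0.34 and -0.46 in all responses.

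Among the demethylases, Kdm6b, the JmjC enzyme that removes methyl groups from H3K27 and is a known early target of TLR signaling, rose most. Kdm6b (11:69398508-69420367) went from 8.01, 7.78 and 8.01 log2 CPM to 9.83, 9.58 and 9.75 in Tlr9het cells and from 7.79, 8.02 and 7.87 to 9.51, 9.53 and 9.49 in Tlr997 cells. With CL097 in Tlr779 cells it went from 7.65, 7.69 and 7.54 to 9.91, 9.55 and 9.60. The groups were separate throughout. The rises were 1.79 (SE 0.08, limma adjusted p = 2.6e-10), 1.62 (SE 0.08, 8.5e-10) and 2.06 (SE 0.10, 4.5e-06), and the CpG responses differed by -0.17 (95% interval -0.42 to 0.07).

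The H3K36 demethylases Kdm2a and Kdm2b, both CXXC proteins that bind unmethylated CpG islands, moved in opposite directions. Kdm2a (19:4316144-4398721) went from 8.68, 8.56 and 8.60 log2 CPM to 6.45, 6.51 and 6.52 in Tlr9het cells and from 8.47, 8.49 and 8.47 to 6.62, 6.64 and 6.68 in Tlr997 cells. With CL097 it went from 8.62, 8.54 and 8.54 to 7.13, 7.21 and 7.32. These were narrow groups, and the log2 fold changes were -2.12 (SE 0.05, limma adjusted p = 1.2e-12), -1.83 (SE 0.05, 4.6e-12) and -1.35 (SE 0.07, 5.5e-06). Kdm2b, which targets a variant Polycomb complex to CpG islands, went from 7.00, 6.95 and 7.04 to 7.98, 7.87 and 7.96 in Tlr9het cells and from 7.07, 7.14 and 7.12 to 8.09, 8.02 and 7.93 in Tlr997 cells. With CL097 it went from 7.07, 6.97 and 6.90 to 8.03, 8.04 and 7.99. The rises of 0.94, 0.90 and 1.04 had SEs of 0.06, 0.06 and 0.07, and no groups overlapped. Kdm8, placed with them by its JmjC domain, did not pass in any response (0.10, 0.06 and -0.19).

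Of the 6 H3K9 demethylase genes, none rose in any response. Kdm4d is left out of the falls that follow, since in the first arm it passed the filter only through unstimulated libraries. With CpG, Kdm3a, Kdm3b and Kdm4c fell in Tlr9het cells, and Kdm3a and Kdm3b in Tlr997 cells. Those that fell with CL097 were Kdm3a, Kdm3b and Kdm4b. Over all genes tested, 28.2%, 26.0% and 23.6% fell and 29.7%, 29.6% and 22.7% rose in the 3 responses. Kdm3a went from 7.33, 7.37 and 7.38 log2 CPM to 6.28, 6.30 and 6.23 in Tlr9het cells, from 7.27, 7.26 and 7.26 to 6.48, 6.54 and 6.78 in Tlr997 cells, and from 7.53, 7.14 and 7.17 to 6.21, 6.46 and 6.42 with CL097. The groups did not overlap. The log2 fold changes were -1.09, -0.66 and -0.92, and the CpG responses differed by 0.43 (limma adjusted p = 0.041), under the fold threshold. Kdm3b fell (log2 fold changes -1.14, -0.96 and -0.71). In the Kdm4 family, which erases H3K9 and H3K36 trimethylation, Kdm4a passed in no response, Kdm4b fell with CL097 (-0.53, lost in 2 of 6 fits without 1 library), and Kdm4c fell in Tlr9het cells (-0.69). Kdm4d sat near the level of few reads, at 0.02, -1.57 and -0.15 without and -1.91, -1.75 and -3.30 with CpG in Tlr9het cells and at -0.04, 0.17 and 1.88 without and -2.01, -1.31 and -0.85 with CpG in Tlr997 cells. Its log2 fold changes of -1.75 (SE 0.71, adjusted p = 0.04) and -2.06 (SE 0.71, adjusted p = 0.019) rested on single libraries: without replicate 3 of the unstimulated or of the CpG libraries the first was lost, and without replicate 1 of the Tlr997 CpG libraries the second. In 3 of the 12 fits without 1 library Kdm4d no longer passed the filter and was not tested. With replicate number as a block the first had an adjusted p of 0.053. The H3K4 demethylases Kdm5a and Kdm5b fell (log2 fold changes -0.75 and -0.55) in Tlr9het cells and with CL097 (-0.51 and -0.61), and in Tlr997 cells Kdm5a fell by 0.67 while Kdm5b gave -0.41.

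Kdm1b (LSD2, which erases H3K4 methylation in gene bodies; 13:47043373-47085279) rose with CpG in both genotypes. It went from 5.16, 5.20 and 5.19 log2 CPM to 6.54, 6.36 and 6.76 in Tlr9het cells and from 5.07, 5.00 and 5.11 to 6.03, 5.59 and 5.94 in Tlr997 cells. With CL097 in Tlr779 cells it went from 5.15, 5.44 and 5.34 to 5.12, 5.69 and 5.17. The CpG groups did not overlap with the unstimulated ones or with each other, while the CL097 groups overlapped. The log2 fold changes were 1.37 (SE 0.11, limma adjusted p = 1.2e-07), 0.79 (SE 0.11, 3.1e-05) and 0.01 (SE 0.16, 0.94). Its paralog Kdm1a (LSD1), a partner of CoREST, gave 0.15, 0.26 and 0.28 and passed the fold threshold in none.

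Among the SET-domain genes, Setd8 and Setd6 rose in each response. Setd8, the H4K20 monomethyltransferase now named Kmt5a, which acts in DNA replication and mitosis, went from 6.132, 6.003 and 6.109 log2 CPM to 7.41, 7.38 and 7.53 in Tlr9het cells and from 6.03, 6.17 and 5.95 to 7.47, 7.61 and 7.48 in Tlr997 cells. With CL097 it went from 6.15, 6.08 and 6.13 to 7.57, 7.51 and 7.52. The stimulated libraries were all higher, by 1.36 (SE 0.07, limma adjusted p = 1.0e-09), 1.47 (SE 0.07, 6.6e-10) and 1.42 (SE 0.06, 3.5e-06). Setd6, which methylates the NF-κB subunit RelA, went from 3.20, 3.29 and 3.23 to 4.53, 4.54 and 4.75 in Tlr9het cells and from 3.19, 3.15 and 3.89 to 4.51, 4.99 and 4.95 in Tlr997 cells. With CL097 it went from 2.80, 3.00 and 3.02 to 4.55, 4.19 and 3.99. Here too no groups overlapped, and the rises were 1.37, 1.40 and 1.30 (limma adjusted p = 1.6e-05, 1.3e-05 and 3.0e-04).

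Setd4 went from 2.34, 2.13 and 2.08 to 3.33, 3.30 and 3.38 in Tlr9het cells and from 1.34, 1.88 and 2.56 to 3.08, 3.34 and 3.53 in Tlr997 cells, rises of 1.15 and 1.39. With CL097 it went from 2.00, 1.51 and 1.80 to 2.93, 2.19 and 2.15 (0.65, adjusted p = 0.066), with no overlap of the groups, and passed there with replicate number as a block (adjusted p = 0.026). Setdb1, an H3K9 methyltransferase that silences retroelements, rose by 0.73 in Tlr997 cells and gave 0.46 and 0.32 in the other responses. Setd2, the enzyme that trimethylates H3K36, fell (log2 fold changes -0.98, -0.78 and -0.52), and the last was lost in 2 of 6 fits leaving out 1 library. Setd5 fell in Tlr9het cells by 0.80. The COMPASS methyltransferases Setd1a and Setd1b passed in none, Setd1a with values of 0.40, 0.46 and 0.44 just under the fold threshold.

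**Figure D3:**
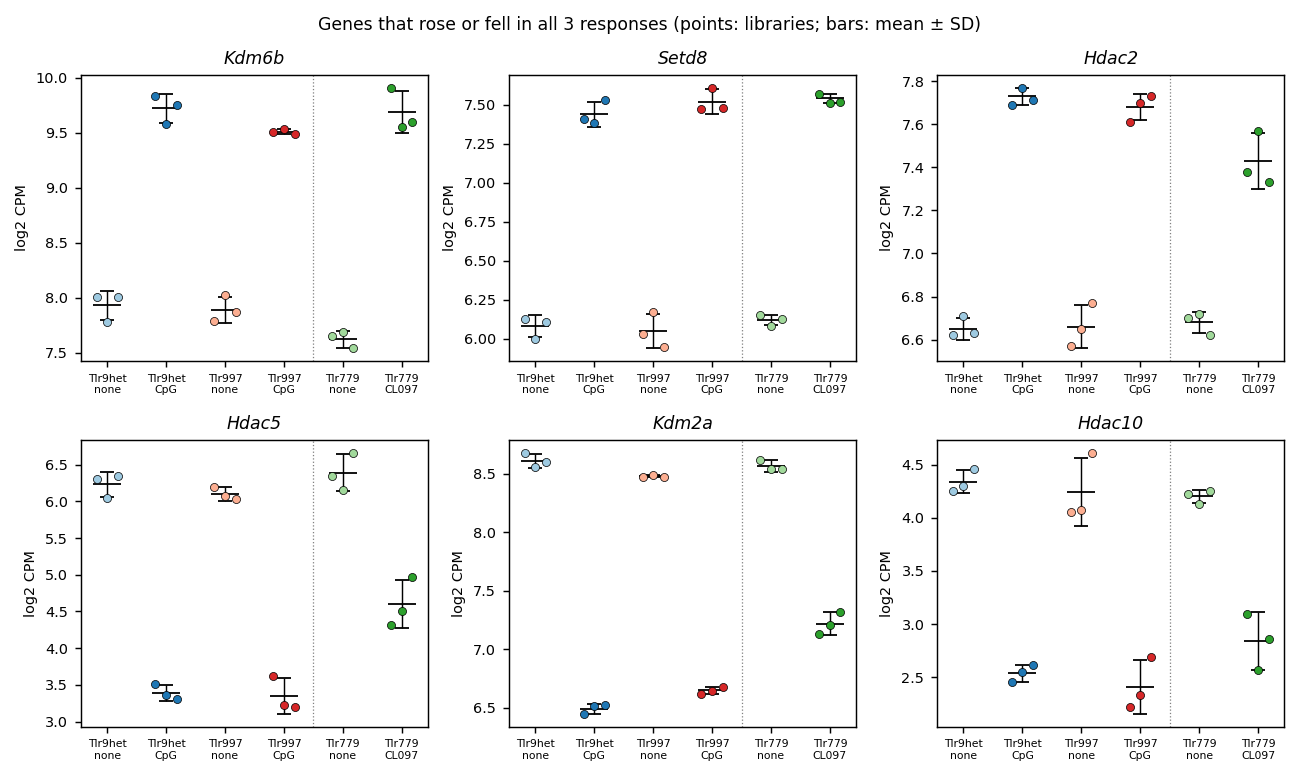
Log2 CPM (y axis, a separate scale for each gene) of 3 genes that rose and 3 that fell in all 3 responses, by group. Points are libraries and bars the mean and SD (n = 3), and the dotted line separates the arms. In every panel the stimulated libraries lie apart from the unstimulated libraries of the same genotype, for example Kdm2a at 6.45 to 6.52 against 8.56 to 8.68 in Tlr9het cells.

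The comparison of Tlr997 with Tlr9het cells asks what replacing the TIR domain of TLR9 changes. The paper describes the Tlr997 mice as homozygous, beside a Tlr9+/- control, and reports equal amounts of TLR9 protein in their B cells. With CpG, Tlr9 RNA averaged 8.01 ± 0.07 log2 CPM (SD, n = 3) in Tlr9het and 7.31 ± 0.21 in Tlr997 cells. The part of allele number or receptor RNA in the differences below was not tested. Without stimulation, none of the 43 genes passed limma's test (2 at an unadjusted p under 0.05), where 0.0174% of all genes did, and values of single genes ran from -0.26 to 1.24, the last for the low gene Kdm4d (SE 0.71). With CpG, 3 of 43 genes differed, against 2.73% of all genes (1.26% higher and 1.47% lower in Tlr997 cells). The libraries of the genotypes did not overlap for 13 of the 43, against 30.0% of all genes (8 without stimulation, against 13.6%). Hdac9 and Setdb2 were higher and Kdm1b was lower in Tlr997 cells. Kdm1b was lower by 0.70 (95% interval -0.95 to -0.46, limma adjusted p = 0.003). Dek, a chromatin protein gene that overlaps Kdm1b on the other strand, differed by 0.13 (adjusted p = 0.44). The difference of the Kdm1b responses was -0.58 (adjusted p = 0.092), and it passed with replicate number as a block (adjusted p = 0.045 across the arm and 0.032 within each genotype).

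Setdb2 (14:59402009-59440880), an H3K9 methyltransferase gene that type I interferon induces in macrophages, stood at 6.55, 6.61 and 6.04 log2 CPM without and 6.03, 6.01 and 6.10 with CpG in Tlr9het cells. In Tlr997 cells it stood at 6.38, 6.64 and 6.74 without and 6.83, 7.06 and 6.73 with CpG. The CpG groups of the genotypes did not overlap, and Setdb2 was 0.83 higher in Tlr997 cells (SE 0.14, limma adjusted p = 0.0036). The adjusted p was 0.069 when all 18 libraries shared 1 model. Neither CpG response passed (-0.35 and 0.28), and their difference of 0.64 had an adjusted p of 0.12, or 0.016 without replicate 3 of the unstimulated Tlr9het libraries (difference 0.82). In Tlr779 cells Setdb2 went from 6.24, 5.64 and 5.83 to 6.95, 6.07 and 7.40 with CL097, where the groups overlapped. That rise of 0.90 (SE 0.31, adjusted p = 0.035) was lost in 4 of 6 fits leaving out 1 library.

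At an adjusted p under 0.05 and any fold, 6 genes differed between the genotypes with CpG, against 5.92% of all genes. Beside the 3 above these were Kdm3a by 0.33, Setd5 by 0.24 and Hdac1 by -0.23. For the difference of responses 4 did, against 2.08% of all genes, and beside Hdac9 these were Kdm3a (0.43), Kdm2a (0.29) and Hdac1 (-0.35). With replicate number as a block, the adjusted p of the difference was 0.066 across the arm and 0.051 within each genotype for Kdm2a, and 0.052 and 0.026 for Hdac1. Between the genotypes with CpG, it was 0.037 for Hdac1 and 0.04 for Setd5 with the block across the arm. A block within each genotype cannot compare the means of the genotypes, since each block lies inside a single genotype, so none is given there. For the other genes the 95% intervals show how large a difference remains possible, such as -0.29 to 0.47 for Hdac5, -0.24 to 0.13 for Hdac2 and -2.72 to 3.07 for Hdac11. Beside these genotype differences, the summed B cell markers were also higher in Tlr997 than in Tlr9het cells with CpG, as given above, with no overlap. Ms4a1 differed by 1.26, Cd79b by 1.04 and Cd22 by 0.58, while Pax5 (-0.13), Cd79a (0.04) and Blnk (-0.01) did not pass. The macrophage list summed to 118 to 229 CPM in Tlr997 and 160 to 191 CPM in Tlr9het cells with CpG, and the T cell list to 11.8 to 23.2 and 13.6 to 29.2 CPM. The part of these in the result was not tested.

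**Figure D4:**
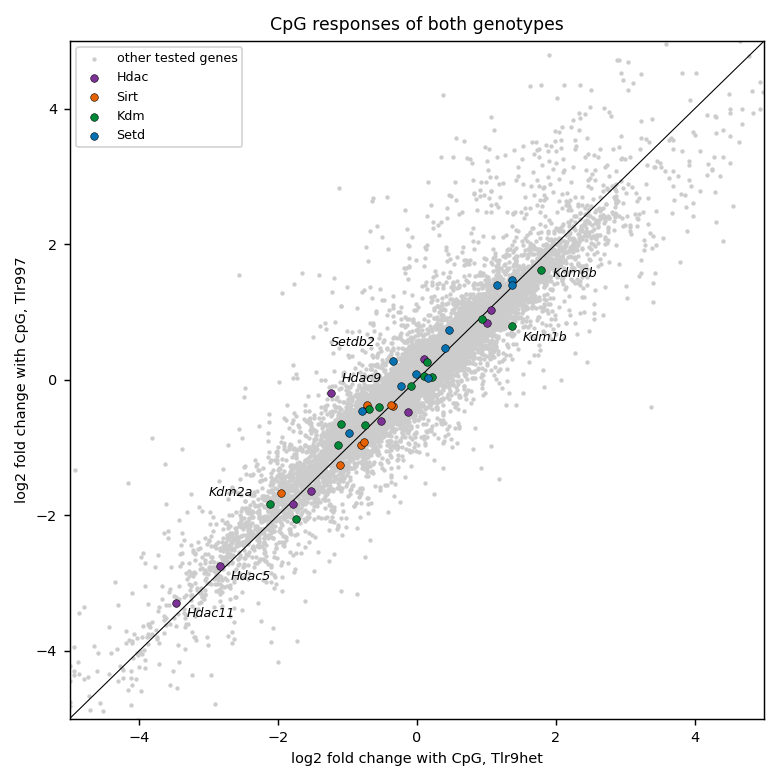
Log2 fold change with CpG in Tlr9het cells (x axis) against Tlr997 cells (y axis) for the genes tested (grey; 45 lie outside the limits of 5) and the 43 genes by family. The line marks equal responses. Hdac9 lies off the line at -1.24 and -0.20, whereas Hdac5 lies near it at -2.84 and -2.75.

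Partner and opposing enzymes were described from lists of other chromatin genes. Their counts are read against the 29.7%, 29.6% and 22.7% of all genes tested that were higher and the 28.2%, 26.0% and 23.6% that were lower in the 3 responses, and no list was tested. Of the 13 histone acetyltransferases, which oppose the HDACs, 8 fell in each response, and 2, 3 and 2 rose. Kat2b (PCAF) fell (log2 fold changes -2.27, -2.04 and -0.91), as did the nuclear receptor coactivator Ncoa3 (-1.67, -1.48 and -0.94), whereas Hat1, which acetylates newly made histone H4, rose by 1.06, 0.89 and 1.22. Of 22 other lysine methyltransferases 5 rose in each response and 12, 9 and 6 fell. Smyd2 rose by 2.34, 2.46 and 1.87, Smyd5 by 1.77, 1.92 and 1.49 and Suv39h2, an H3K9 trimethylase, by 2.29, 2.03 and 1.66. The MLL gene Mll3 fell (log2 fold changes -1.91, -1.47 and -0.94). Mll1, singled out after its values were seen, was the only gene of these lists that differed between the genotypes with CpG, 0.52 higher in Tlr997 cells (SE 0.11, limma adjusted p = 0.014). Of 11 JmjC genes outside the Kdm symbols 2 rose and 5 fell in each response. Jhdm1d, the older name of Kdm7a, fell (log2 fold changes -3.19, -2.85 and -1.38).

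Among subunits of the complexes, genes changed in both directions. In the NCoR/SMRT list of 6, 2, 2 and 1 genes rose and 2, 1 and 1 fell, and Tbl1x, which exchanges the corepressor, rose by 1.68, 1.62 and 1.12. In the Sin3 list of 14, 5, 3 and 2 rose and 4, 3 and 3 fell, with Sap30 rising by 1.53, 1.29 and 0.86 and Arid4a falling (log2 fold changes -2.24, -1.83 and -0.89). In the NuRD and CoREST list of 16, 2, 3 and 1 rose and 8, 7 and 6 fell. Its Mta subunits split, as Mta1 rose by 1.01, 0.91 and 0.82 and Mta3, a B cell partner of BCL6, fell (log2 fold changes -2.38, -2.49 and -1.16). In the PRC2 and COMPASS list of 16, 4, 3 and 4 rose and 4, 3 and 2 fell, with Wdr5 rising by 1.48, 1.37 and 1.16 and Phf1 falling (log2 fold changes -2.36, -2.49 and -1.30).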

How the data were processed

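RNA-seq of 18 B cell libraries in 6 groups was analysed. The authors processed the reads (per the labels and methods: FastQC 0.11.7, Trim Galore 0.6.5, STAR 2.6.1a to mm10, featureCounts of Subread 2.0.1) and deposited quantile-normalized voom values as log2 CPM for 23420 genes. Depth is unknown without counts. Of 6614 genes under -4 in all 12 libraries of the first arm, 6306 hold 1 value for each replicate number, and 822 of them differ between numbers. Values may therefore have been adjusted by replicate number before deposit. The sources used here do not state such a step and it was not tested. If it was done, the tests without a block do not account for it, and their p-values may be too small.

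Genes with at least 3 libraries over 0 log2 CPM were tested with limma 3.58.1 in R 4.3.3 (lmFit, contrasts, eBayes with trend), with 12 libraries of the first arm in 1 model and the 6 Tlr779 libraries in another, and p-values adjusted over all genes tested. Calls needed an adjusted p under 0.05 together with a log2 fold change over 0.5 in size. The fits were tested on simulated data with independent errors for each library. That test therefore cannot show how shifts shared by a replicate number, or an adjustment by that number, affect the p-values. Libraries of a group came from separate mice. Within a genotype, libraries with the same replicate number deviated together in Tlr9het (r = 0.51, 0.29 and 0.51) and Tlr779 cells (0.25, 0.49 and 0.33). In Tlr997 cells they did so less clearly (0.37, 0.08 and 0.02). The main fits held no block in any genotype, so their p-values ignore any such pairing. Only the alternative fits with a replicate block used the numbers, and these did so in every genotype. Named genes are the 6 that rose and the 6 that fell most in each response, all that differed between genotypes, and members of each enzyme class. The members and the lists were chosen with earlier results of these data known. Promoter sequences are from RefSeq (GRCm38.p6). Alternatives were other filters, variance models, thresholds, centring, sets of libraries, replicate blocks, and leaving out each library.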

Additional observations from a re-analysis of the deposited data

Results flagged for a closer look

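The CpG response of Hdac9 differed between the genotypes by the test of the difference itself: it was 1.04 less negative on the log2 scale in Tlr997 than in Tlr9het cells (limma adjusted p = 4.7e-04). Groups of 3 libraries were not searched for outlying samples.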

How the results depend on the processing

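With a log2 fold change over 1, the genes called numbered 18 with CpG in Tlr9het cells, against 4058 of all 11494 tested. In Tlr997 cells they numbered 13, against 3767 of 11494, and with CL097 9, against 2582 of 11082. Between the genotypes with CpG 1 was called, against 74 of 11494. With no fold threshold the genes called numbered 6 between the genotypes with CpG (680 of all 11494). For the difference of the responses they numbered 4 (239 of 11494), and with CL097 32 (6822 of 11082). With a replicate block across the arm, and with a replicate block within each genotype, 2 genes were called for the difference of responses, Kdm1b beside Hdac9. Over all 11494 genes tested, 215 and 328 were called with these blocks. Apart from those given beside Kdm1b, Kdm4d and Setd4, the block changed no call at both thresholds of a gene described above. At an adjusted p alone it moved Kdm2a and Hdac1 for the difference of responses, as given beside them. It also moved Hdac6 with CL097 (limma adjusted p = 0.044 without and 0.061 with the block). Within each genotype it also brought under 0.05 Setd5 for the difference of responses (0.041) and Hdac1 with CpG in Tlr9het cells (0.047). Leaving out 1 library at a time gave 27 to 29 genes with CpG in Tlr9het cells, 23 to 26 in Tlr997 cells, 18 to 20 with CL097, 0 to 0 without stimulation and 3 to 3 between the genotypes with CpG. For the difference of responses it gave 1 to 2, with 2 without replicate 3 of the unstimulated Tlr997 or of the unstimulated Tlr9het libraries. Of 1687 values of single genes under all alternatives, 1612 kept their direction and side of the threshold, 68 fell under it, 7 passed it, and 0 changed sign. The cause of these shifts was not tested.

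Limits: without counts, the precision of low genes such as Hdac11 and Kdm4d cannot be set from their reads. In Tlr779 cells the calls of Kdm4b, Kdm5a, Setd2, Sirt2, Hdac11 and Setdb2 were each lost without at least 1 library.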
